A study of Mus musculus with 14 samples.

Results

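The 10 genes described here are Il9r, P2ry10, Itgb3, Rasgrp3, Rras2, Rhbdf1, Osbpl5, Ift140, Chst10 and Gad1, out of 39179 gene IDs in the count tables. They were chosen by their measured RNA levels, which stood lower in B cells lacking both RelB and c-Rel than in B cells lacking c-Rel alone, at 0h or after 6h with BAFF, and the rule names no threshold. Follicular B cells, the mature B cells that recirculate through lymphoid follicles, were taken with a magnetic bead kit from spleens of C57BL/6 mice and cultured with 50 ng per ml of BAFF. RNA was reverse transcribed with poly-dT primers and sequenced as Illumina libraries, and the deposited values are read counts per gene. Wild type (wt) cells were measured at 0h, 6h and 27h. Cells lacking c-Rel (crel-/-, called cko) and cells lacking RelB and c-Rel (relb-/-crel-/-, called dbko) were measured at 0h and 6h. All 7 groups share the strain and the cell kit, the 0h groups are labelled as BAFF 0hr, and each holds 2 libraries (n = 2). The sources used here do not give whether the knockouts act in B cells alone or in the whole animal, or which part of Relb is removed. A group lacking RelB alone was not analysed here, so loss of RelB is seen only on top of loss of c-Rel.

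BAFF is a cytokine of the tumour necrosis factor family that keeps mature B cells alive. Through its receptor on B cells it stabilises the kinase NIK, which leads to the cleavage of the Nfkb2 product p100 to p52, and p52 pairs with RelB in the non-canonical branch of the NF-kB pathway. c-Rel, encoded by Rel, is the subunit best known for the canonical branch in stimulated lymphocytes.

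Levels are given as CPM, counts scaled to a common effective library size, and paired values are replicate 1 and replicate 2 in that order. Differences are log2 values ± SE from edgeR's quasi-likelihood test with Benjamini-Hochberg adjustment over 12630 tested genes, and a call means an adjusted p below 0.05. All 10 genes passed the filter on low counts. The labels do not tie the 2 libraries of a group to different mice, so each p-value reflects the spread between libraries alone, which may be technical. Library totals ranged from 10497802 to 11888765 gene counts. Rel stood at 621 to 683 CPM in wt at 0h and 6h against 40.0 to 111 in cko and dbko. Relb RNA was reduced but not absent in dbko, from 53 to 88.4 CPM over both times, where the cko libraries ranged from 159 to 195. Among wt libraries Relb spanned 115 to 117 CPM for 0h cells, 149.5 to 164 for 6h cells, and 63.9 to 66.4 for 27h cells. The dbko libraries thus lay below wt of the same time, but their range held the wt level of 27h. For 0h cells both cko libraries stood above both wt libraries in Relb. The B cell markers Ms4a1, Cd79a, Cd79b, Pax5, Cd22 and Blk were counted in each of the 7 groups.

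The dbko libraries differed from the others in more than the 10 genes. Of 6 tested follicular markers 3 were lower in dbko than in cko at 0h and 2 at 6h (3 with size factors from DESeq2), and their summed level was 3948 and 6015 CPM in dbko at 0h against 8869.8 and 8787 in cko, and 1312 and 2044 against 2777 and 3143 at 6h. Of 6 markers of B-1 cells 3 were higher at 0h and 4 at 6h, with summed levels of 1741 and 1421 CPM in dbko against 1027 and 978 in cko at 0h, and 2187 and 2054 against 1583 and 1961 at 6h. All 9 erythroid markers were higher at both times, with a summed level of 1098 and 543 CPM in dbko at 0h against 55.4 and 58.9 in cko and 11.5 and 12.1 in wt, and 227 and 104 against 4.4 and 6.7 at 6h. Of 10 macrophage markers 8 and 10 were higher, at 269 and 154 CPM against 43 and 37.8 in cko and 173 and 175 in wt at 0h, and 261 and 91.1 against 30.7 and 29.8 at 6h. Of marker genes of other cell types, in dbko against cko at 0h and 6h in turn, 0 and 3 of 7 were higher for marginal zone B cells, 0 and 2 of 5 for plasma cells, 3 and 2 of 5 for dendritic cells (2 and 2 with size factors from DESeq2), 1 and 0 of 3 for T cells, 1 and 1 of 3 for neutrophils and 0 and 0 of 2 for stroma, 1 of 5 dendritic cell genes was lower at 6h, and 1 of 5 for transitional B cells was lower at 0h and 1 higher at 6h. The part of these differences in the lower levels of the 10 genes was not tested, and in bulk RNA fewer cells of a type and less RNA per cell cannot be told apart. The share of all tested genes called higher in dbko than in cko is not given. Counts of higher genes here and below thus have no share beside them. Replicate 1 of dbko stood below replicate 2 for 8 of the 10 genes at 0h and for 6 at 6h, by up to 6.56 times, in Il9r at 0h.

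All 10 genes stood lower in dbko than in cko at both times, in every library and by the adjusted p, which is what they were picked for. Both dbko libraries lay below both cko libraries for 25.5% of all tested genes at 0h and 21.9% at 6h. The call lower in dbko than in cko held for 2.39% of all tested genes at 0h and 4.66% at 6h, for 6.18% at either time and for 0.879% at both. The differences closest to 0 were that of P2ry10 at 0h, -1.18, and that of Osbpl5 at 6h, -1.41, and the largest were those of Il9r, -6.09 at 0h and -6.10 at 6h. The median over the 10 genes was -1.84 at 0h and -2.66 at 6h, beside medians of 0.01 and -0.00 over all tested genes. Without 1 library, 3 of these calls ended at 0h. P2ry10 then had adjusted p = 0.0588 without cko replicate 1, 0.136 without cko replicate 2 and 0.0908 without dbko replicate 1, Gad1 had 0.0757, 0.0793 and 0.0933, and Itgb3 had 0.149, 0.127 and 0.183.

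Called lower than wt in dbko at 0h were 7 of the 10 genes, where 4.55% of tested genes were called lower, and at 6h all 10, where 11.5% were. These comparisons share the dbko libraries with the choice of the genes, so the counts describe the set and test nothing. At 0h both dbko libraries lay below both wt libraries for 9 of the 10 genes and for 29.8% of tested genes. The 3 genes not called were P2ry10 (-0.31 ± 0.25, adjusted p = 0.457), Gad1 (-0.75 ± 0.35, adjusted p = 0.192) and Itgb3 (-0.66 ± 0.39, adjusted p = 0.298). P2ry10 overlapped wt at 0h, at 549 and 997 CPM in dbko against 996 and 923, and it was called without dbko 0h replicate 2, at -0.81 (adjusted p = 0.0256). Lower in dbko than in both other genotypes at both times were 7 of the 10 genes and 0.475% of tested genes.

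With c-Rel lost alone, 0 of the 10 genes were called lower than in wt at 0h or 6h by edgeR without a replicate block, and for most of them the values in cko lay above wt. The cko libraries were used in the choice, which favours genes high in cko, so these counts describe the set and test nothing. Both cko libraries stood above both wt libraries for 9 genes at 0h, all but Osbpl5, beside 26.6% of tested genes, and for 7 at 6h, beside 27.6%. Of these differences only that of Chst10 at 0h was called, at 0.86 ± 0.11 (adjusted p = 0.00176, and 0.0591 without wt 0h replicate 1), so 1 of 10 genes was called at 0h, where 1.50% of tested genes were, and 0 of 10 at 6h, where 3.54% were. The median over the 10 genes was 0.86 at 0h and 0.34 at 6h, beside -0.02 and 0.02 over all tested genes. The count of calls turned on how the spread was estimated. With only the wt and cko libraries of 0h in the fit, 8 of the 10 genes were called, all higher in cko. These were Chst10, Il9r, Ift140, Rras2, Rhbdf1, P2ry10, Gad1 and Itgb3, and 12.6% of the genes tested in that fit were higher. With only the wt and cko libraries of 6h in the fit, 4 were called, also higher (Il9r, Rhbdf1, P2ry10 and Itgb3), where 2.10% were higher. DESeq2 called 4 genes higher at 0h (Chst10, Ift140, Rhbdf1 and P2ry10, with P2ry10 at 0.90, adjusted p = 0.00907), where 2.22% of its tested genes were higher. At 6h it called P2ry10 higher, at 0.81 (adjusted p = 0.019), and Ift140 lower, at -0.42 (adjusted p = 0.011), 2 of 10 genes where 5.28% were called. In edgeR Ift140 was -0.40 at 6h (adjusted p = 0.058) and was called lower without cko 6h replicate 1 (-0.54, adjusted p = 0.0284) and with a replicate block (-0.41, adjusted p = 0.048). Ift140 stood at 201 and 168 CPM in cko against 253 and 235 in wt at 6h, and Chst10 at 219 and 231 against 248 and 236, so for these 2 genes both cko libraries lay below wt at that time, as for 24.1% of tested genes. Lower than both other genotypes at both times, with no call between cko and wt at either, were Il9r, Rhbdf1, Ift140, Osbpl5, Rras2 and Rasgrp3, 6 of the 10 genes and 0.396% of tested genes.

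**Figure D1:**
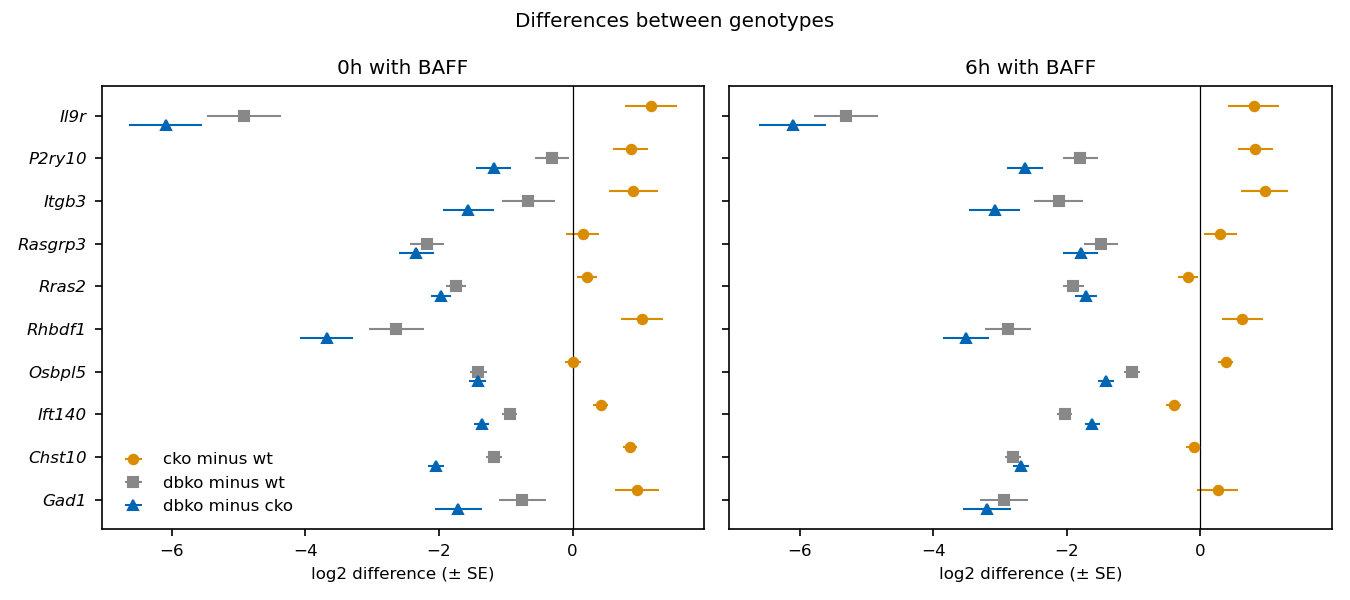
Log2 differences between genotypes (x axis, bars ± SE from the edgeR model) for each of the 10 genes (y axis) at 0h on the left and 6h on the right, with cko minus wt as circles, dbko minus wt as squares and dbko minus cko as triangles. All triangles lie below 0, from -1.18 to -6.09 at 0h and from -1.41 to -6.10 at 6h, and most circles lie at or above 0.

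Il9r encodes the receptor chain that gives IL-9 its specificity and signals together with the common gamma chain, Il2rg. It lies on the minus strand of chr11:32187541-32200279 (ENSMUSG00000020279, protein coding, build GRCm38). Libraries of wt were at 79.6 and 70.6 CPM at 0h, 326 and 278 at 6h and 181 and 185 at 27h. Libraries of cko were at 175 and 163 CPM for the 0h cells and 588 and 464 after 6h. In dbko only 7 and 45 reads were counted at 0h and 48 and 146 at 6h, which is 0.657 and 4.31 CPM and 3.88 and 11.4. The highest dbko library thus lay far below the lowest wt library, and the order of the groups ran from cko at 6h to dbko at 0h with overlap only between the dbko times. Its dbko minus cko difference was -6.09 ± 0.55 at 0h and -6.10 ± 0.50 at 6h, and at 0h it was -5.32 without dbko replicate 1 and -7.98 without replicate 2. Against wt at 0h it was -4.92 ± 0.55 in dbko, -4.12 without replicate 1 and -6.81 without replicate 2. At 6h the dbko minus cko difference was -7.08 without dbko replicate 2, and dbko minus wt was -5.30, or -6.28 without that library. In wt Il9r rose over 6h by 2.01 ± 0.40 (adjusted p = 0.00248). At 27h it was still above 0h by 1.29 (adjusted p = 0.0217), a call that ended without any of the 4 libraries (adjusted p = 0.0788 to 0.132) and in DESeq2 (0.119). In cko it rose by 1.64 over 6h (adjusted p = 0.00735, and 0.0584 without cko 0h replicate 2), and in dbko the difference of 1.63 had adjusted p = 0.0606.

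The partners of the IL-9 receptor did not share this size of difference. Il2rg stood at 268 and 344 CPM in dbko at 0h against 401 and 359.7 in cko (-0.31, adjusted p = 0.16) and at 158 and 184 against 275 and 269 at 6h (-0.67 ± 0.13, adjusted p = 0.00649). Jak1, the kinase bound to the IL-9 receptor chain, was lower at -0.54 ± 0.14 at both times (adjusted p = 0.0314 and 0.0247). Of 14 tested genes of IL-9 receptor signalling, Il9r not among them, 0 were higher and 1 lower at 0h, and 1 was higher (Irs1, an adaptor, 1.39) and 2 lower at 6h. Of 8 tested receptor chains of the gamma chain family, 1 was higher at 0h, Il2ra at 2.73, and at 6h 1 was higher, Il2rb at 1.83, and 1 lower, Il2rg. In wt over 6h the largest rises in that family were those of Il7r, at 5.03, and Il2ra, at 4.77.

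Rhbdf1 encodes iRhom1, an inactive rhomboid protein that escorts the sheddase ADAM17, and it is the neighbour of Il9r. It lies at chr11:32209585-32222300 on the same strand (ENSMUSG00000020282), 9305 bp from Il9r. Libraries of wt were at 8.34 and 8.91 CPM at 0h, 18.4 and 17.8 at 6h and 29.9 and 28.1 at 27h, and in cko at 18.5 and 17.1 and 29.8 and 26.4. In dbko it was counted 7 and 22 times at 0h and 17 and 45 times at 6h, or 0.657 and 2.11 CPM and 1.38 and 3.52. Every dbko library lay below every other library, and the dbko times overlapped. The dbko minus cko difference was -3.68 ± 0.40 at 0h, -4.74 without dbko replicate 2, and -3.51 ± 0.35 at 6h, -4.34 without replicate 2. Against wt at 0h it was -2.64 in dbko, -2.03 without replicate 1 and -3.69 without replicate 2, and at 6h it was -2.88, or -3.71 without replicate 2. In wt Rhbdf1 rose over 6h by 1.07 ± 0.32 (adjusted p = 0.0152), a call that ended without any 1 of the 4 libraries compared (adjusted p = 0.0603 to 0.0944), and it stood 1.75 ± 0.31 above 0h at 27h (adjusted p = 0.000709). Its relative Rhbdf2, which encodes iRhom2, stood at 78.5 and 86.1 CPM in dbko against 97.7 and 81.8 in cko at 0h and 53.4 and 53.4 against 50.5 and 45.2 at 6h. Of 10 tested genes of rhomboids, ADAM17 and its substrates, Rhbdf2 among them, 2 were higher in dbko at 0h, Tnf at 1.29 and Rhbdd3 at 1.15, 0 were lower (1 with size factors from DESeq2), and 0 were called at 6h.

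Of the genes beside this pair, 1 between them was lower in dbko at both times. Snrnp25, a component of the minor spliceosome, starts 5.1 kb from the start of Il9r, and it stood at 17.6 and 12.5 CPM in dbko at 0h against 38.6 and 35.8 in cko (-1.30 ± 0.19, adjusted p = 0.00131). At 6h it stood at 13.8 and 20.9 CPM against 71 and 83.4 (-2.15 ± 0.19, adjusted p = 3.54e-05). Mpg, a DNA glycosylase gene 26.2 kb away, was lower at 6h alone (-0.22, adjusted p = 0.359, then -0.73 ± 0.13, adjusted p = 0.00441), and Nprl3 at 67.4 kb was not called (-0.22 and -0.47). Beyond them lie the alpha globin genes Hba-a1 and Hba-a2, at 83.2 and 96.2 kb. These 2 erythroid genes, near copies of each other whose reads the counting could split, were higher in dbko by 3.96 and 4.11 at 0h and 4.62 and 4.44 at 6h. Sh3pxd2b at 147.5 kb was higher too, by 4.25 and 3.41. On the other side of Il9r, Nsg2 at -199.8 kb was not called (0.19 and 0.26). The neighbours called lower thus started within 26.2 kb of the start of Il9r, and those called higher at 83.2 kb or more. All 9 tested erythroid markers were higher in dbko at both times, so the globin values are not particular to this stretch.

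**Figure D2:**
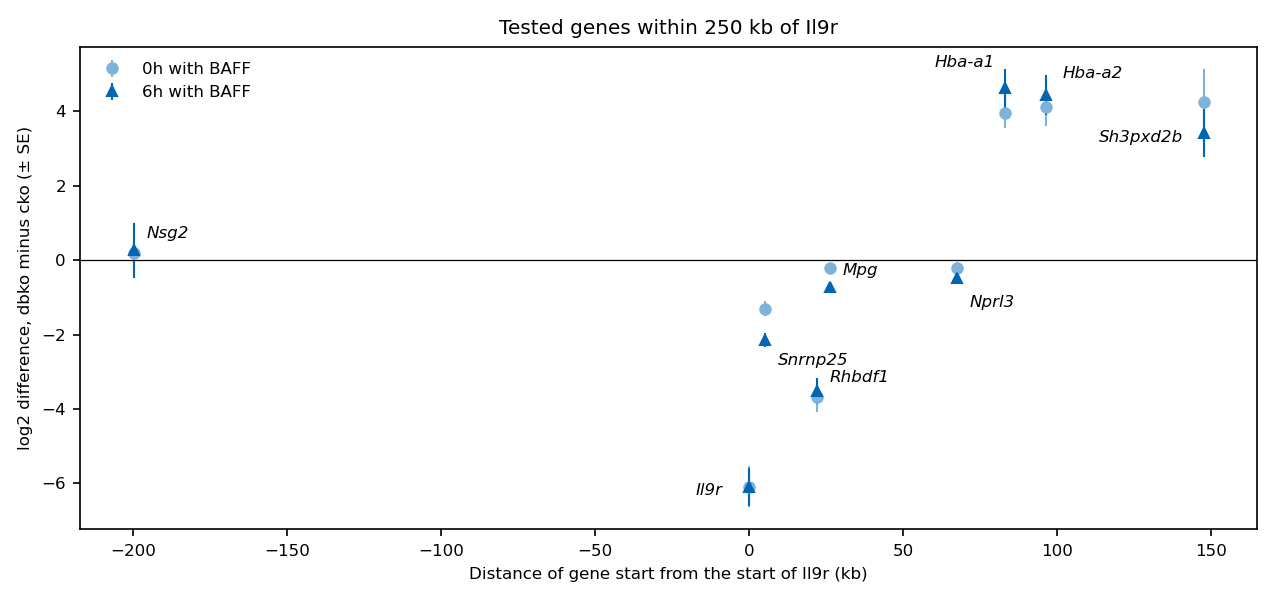
Log2 difference dbko minus cko (y axis, bars ± SE) of the tested genes within 250 kb of the start of Il9r against the distance of their start from it in kb (x axis), with 0h as circles and 6h as triangles. Il9r, Snrnp25 and Rhbdf1 lie below 0, down to -6.10, and Hba-a1, Hba-a2 and Sh3pxd2b lie above 3.

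The RefSeq sequence of the 250 bases before the start of Il9r (build GRCm38.p6, chr11:32200280-32200529, minus strand, printed 5′ to 3′ in the direction of the gene) is shown because this gene differed most, and with it the same window of Osbpl5 (chr7:143757009-143757258, minus strand), the only one of the searched genes whose windows held the pattern GGAANNNCC. Capitals mark the match.
Il9r: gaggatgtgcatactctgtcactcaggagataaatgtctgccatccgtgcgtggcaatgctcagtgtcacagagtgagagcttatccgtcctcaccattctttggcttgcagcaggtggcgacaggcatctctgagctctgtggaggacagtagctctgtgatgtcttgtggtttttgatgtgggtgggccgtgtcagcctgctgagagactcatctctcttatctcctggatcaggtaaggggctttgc
Osbpl5: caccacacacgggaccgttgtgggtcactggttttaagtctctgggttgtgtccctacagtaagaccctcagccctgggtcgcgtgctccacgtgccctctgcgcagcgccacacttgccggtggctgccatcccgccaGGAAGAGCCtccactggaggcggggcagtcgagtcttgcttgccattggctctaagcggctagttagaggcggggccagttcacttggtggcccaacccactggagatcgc
Windows of this length were searched on both strands for 3 patterns that can overlap each other: the 10-letter NF-kB consensus, GGGANNNNCC and GGAANNNCC. The RefSeq table held 12 start sites of 8 of the 10 genes, all but Rhbdf1 and Itgb3. The consensus was in 0 of the 12 windows and in 7.25% of all 32851. GGGANNNNCC was in 1, at the second start of P2ry10, and in 17.6% of all windows. GGAANNNCC was in 2, both of Osbpl5, one of them 111 to 103 bases before the start, and in 15.7% of all windows. The window of Il9r printed above held no match, which says only that these letters are not in these bases.

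P2ry10 encodes a G protein-coupled receptor for lysophosphatidylserine and related lipids (chrX:107088492-107104974, plus strand, ENSMUSG00000050921). Its level in wt went down with time, from 996 and 923 CPM at 0h to 378 and 402 at 6h and 152 and 140.0 at 27h. Libraries of cko were at 1574 and 1926 CPM at 0h and 587 and 789 at 6h, and in dbko at 549 and 997 and 90.9 and 132. The dbko libraries overlapped wt at 0h and lay below every other library at 6h. The wt falls were -1.30 ± 0.26 over 6h (adjusted p = 0.00162) and -1.42 ± 0.26 from 6h to 27h (adjusted p = 0.00182). In cko the 6h difference was -1.35 (adjusted p = 0.00143) and in dbko -2.79 ± 0.27 (adjusted p = 1.49e-05). Of its exon 50-mers 3.79% are shared with P2ry10b, a near relative 60.4 kb away, which was not called between dbko and cko (0.24 and -0.31). Gpr174, a further lysophosphatidylserine receptor 167.4 kb away, was lower in dbko at either time (-1.19 ± 0.30, adjusted p = 0.0328, then -1.78 ± 0.31, adjusted p = 0.0049), at 51.6 and 121 CPM against 176 and 217, then 32.7 and 40.3 against 116 and 134. Of 21 other tested genes of lysophospholipid and purine receptors and their G proteins, Gpr174 and P2ry10b among them, 1 was higher (S1pr4, 0.69) and 1 lower in dbko at 0h (2 lower with size factors from DESeq2), and 3 were higher and 4 lower at 6h, among the lower ones Gpr132 at -1.50. In wt over 6h 1 of these 21 rose and 12 fell, with Gpr183, a guidance receptor of B cells, at -1.36 and S1pr1, which guides exit from lymphoid tissue, at -1.84.

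Itgb3 encodes the integrin beta 3 chain, which pairs with the alpha chains Itgav and Itga2b (chr11:104608000-104670476, plus strand, ENSMUSG00000020689). It was measured in wt at 42.5 and 39.6 CPM at 0h, 259.6 and 282 at 6h and 32.6 and 37.1 at 27h. In cko it went from 80.8 and 73.3 CPM to 549 and 506, and in dbko from 25.7 and 26.3 to 30.9 and 93.9. The level at 6h was thus high in both libraries of wt and cko, while in dbko 1 of 2 libraries stayed near the 0h level. The wt rise was 2.72 ± 0.38 (adjusted p = 0.000304), and the fall from 6h to 27h was -2.96 ± 0.38 (adjusted p = 0.000423). In cko the rise was 2.78 (adjusted p = 0.000272). In dbko it was 1.26 (adjusted p = 0.0241) but 0.25 without dbko 6h replicate 2 (adjusted p = 0.185) and 1.85 without dbko 6h replicate 1, and the call also ended without dbko 0h replicate 1 (0.0845) or 2 (0.0653). The dbko minus cko difference at 6h was -3.08 ± 0.38, -4.09 without dbko 6h replicate 2 and -2.49 without replicate 1, and dbko minus wt at 6h was -2.12, -3.13 and -1.53.

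The partner chain Itgav rose and fell in wt as Itgb3 did and was not called between dbko and cko. It rose in wt by 1.79 ± 0.17 over 6h (adjusted p = 5.33e-06), from 52.2 and 50.9 CPM to 179 and 177, and was back at 53.5 and 56.5 at 27h. Libraries of dbko were at 101 and 119 CPM at 6h against 156 and 124 in cko (-0.35, not called). Itga2b stood at 1.02 to 3.88 CPM in every library. Of 9 markers of megakaryocytes and platelets, cells rich in Itgb3, the summed level was 1.09 to 2.99 CPM in wt and cko libraries and 4.6, 8.43, 13.8 and 5.86 in dbko, and Pf4 stood at no more than 0.104 in wt and cko. The summed level was thus higher in every dbko library than in any wt or cko library, and its part in the Itgb3 values was not tested. Of 16 other tested integrin genes 4 were higher in dbko than in cko at 0h (3 with size factors from DESeq2) and 5 at 6h, and 0 were lower at either time. Itgax and Itgam, myeloid integrin chains, were among them, at 2.17 and 2.53 at 0h and 2.29 and 2.29 at 6h, as was Itgb1 at 0h, at 0.95.

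Rasgrp3 and Rras2 belong to Ras signalling. Rasgrp3 encodes an exchange factor that loads Ras and Rap with GTP downstream of the B cell receptor (chr17:75435896-75529054, plus strand, ENSMUSG00000071042), and Rras2 encodes TC21, a Ras-related GTPase that binds antigen receptors (chr7:114046782-114117781, minus strand, ENSMUSG00000055723). Rasgrp3 was measured in wt at 359.9 and 359 CPM at 0h, 262 and 249 at 6h and 429 and 420.3 at 27h, and at 387 and 411 and 326 and 303 in cko. Libraries of dbko were at 49.9 and 108 CPM at 0h and 99.8 and 82.6 at 6h, below every other library. The 0h libraries of dbko lay farther apart than those of 6h, and both times overlapped. Its dbko minus cko difference was -2.34 ± 0.26 at 0h, -3.01 without dbko 0h replicate 2, and -1.79 ± 0.26 at 6h, and dbko minus wt at 0h was -2.18, and -2.85 without that library. In wt the 6h difference of Rasgrp3, -0.49 ± 0.25, had adjusted p = 0.124, and the rise from 6h to 27h, 0.73 ± 0.25 (adjusted p = 0.0395), lost its call without any of the 4 libraries (adjusted p = 0.121 to 0.168). With the compared wt libraries alone in the fit, the 6h difference was called, at adjusted p = 2.28e-06.

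Rras2 was measured in wt at 119.9 and 122 CPM at 0h, 77.9 and 90.2 at 6h and 79.4 and 72.9 at 27h. In cko it went from 132 and 149 CPM to 62.7 and 84.1, and in dbko from 33.2 and 38.6 to 20.5 and 24.4. All dbko libraries lay below the others, and wt at 6h, wt at 27h and cko at 6h overlapped. It fell over 6h in all 3 genotypes, by -0.52 ± 0.15 in wt (adjusted p = 0.0108), -0.94 in cko (adjusted p = 0.000299) and -0.67 in dbko (adjusted p = 0.00463). The wt call ended without wt 0h replicate 2 (adjusted p = 0.0573) or wt 6h replicate 1 (0.108). Between dbko and cko it differed by -1.97 ± 0.15 at 0h and -1.71 ± 0.16 at 6h. Of 24 other tested Ras GTPases, exchange factors and GTPase-activating genes, 0 were higher and 1 lower in dbko than in cko at 0h, and 1 was higher and 5 lower at 6h. Rasa2, a GTPase-activating gene, was lower at both times, by -0.51 (adjusted p = 0.0208) and -0.75 (adjusted p = 0.0021). Rasgrp1 and Rasgrp2, the other exchange factors of the family in lymphocytes, stood at 286 and 285 CPM and at 352 and 397 in dbko at 0h, against 290.1 and 303 and 339 and 306 in cko. Of 24 genes between the B cell receptor and the Ras and PI3K pathways 1 was higher and 1 lower at 0h and 3 were higher and 1 lower at 6h, the lower one being the kinase gene Map2k1, at -1.09 ± 0.20 (adjusted p = 0.0061) and -1.11 ± 0.20 (adjusted p = 0.00487).

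**Figure D3:**
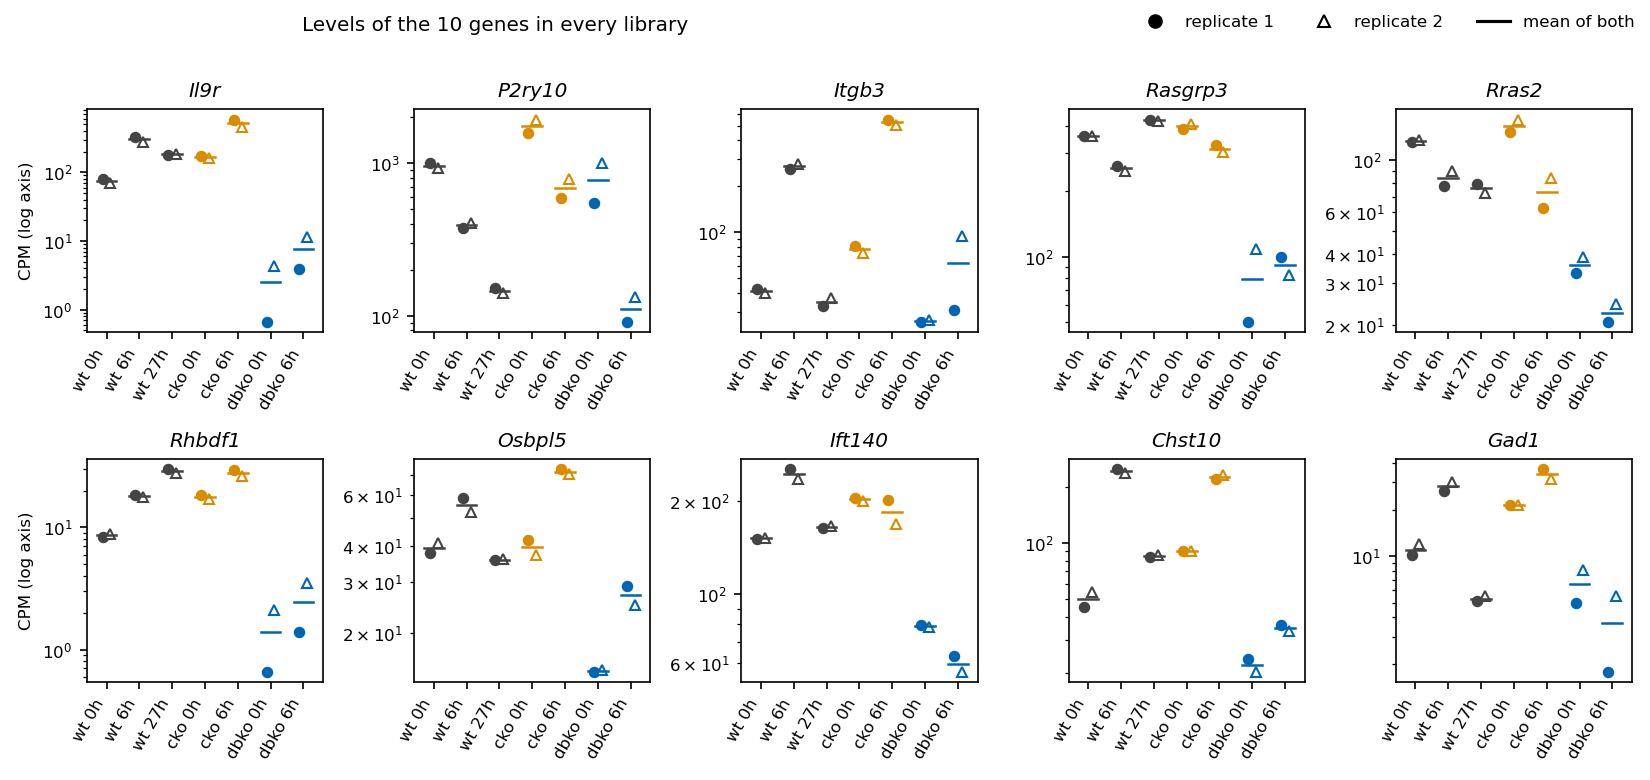
CPM of each of the 10 genes on a log axis in every library of the 7 groups (x axis), with replicate 1 as filled circles, replicate 2 as open triangles and the mean of both as a line. The dbko libraries lie below the cko libraries of the same time in all 10 panels, and replicate 1 of dbko lies lowest for Il9r at 0.657 CPM.

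Osbpl5 and Ift140 act in lipid exchange and in cilia. Osbpl5 encodes a lipid transfer protein of the oxysterol-binding family (chr7:143688762-143756985, minus strand, ENSMUSG00000037606). Its level was 37.7 and 40.9 CPM in wt at 0h, 58.3 and 52.4 at 6h and 35.6 and 35.9 at 27h, in cko 41.9 and 37.1 and 73.3 and 70.6, and in dbko 14.7 and 14.9 and 29.1 and 24.9. The dbko libraries were lowest at either time and close to each other. Osbpl5 rose over 6h in each genotype, by 0.49 ± 0.12 in wt (adjusted p = 0.00418), 0.87 in cko (adjusted p = 9.73e-05) and 0.87 in dbko (adjusted p = 0.000179). The wt call ended without wt 0h replicate 1 (adjusted p = 0.0509) or wt 6h replicate 1 (0.0522), and from 6h to 27h the gene fell by -0.63 ± 0.12 (adjusted p = 0.00159). The dbko minus cko difference was -1.42 ± 0.13 at 0h and -1.41 ± 0.12 at 6h. Of 9 other tested genes of the family 2 were higher in dbko at 0h, Osbpl1a at 1.85 and Osbpl3 at 4.03, and at 6h 1 was higher, Osbpl8 at 0.49, and 1 lower, Osbpl9 at -0.40. Over 6h in wt 5 of the 9 rose and 1 fell.

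Ift140 encodes a core subunit of complex A of intraflagellar transport, which carries cargo back from the tip of the cilium (chr17:25016085-25099495, plus strand, ENSMUSG00000024169). It was measured in wt at 151 and 152 CPM at 0h, 253 and 235 at 6h and 164 and 166 at 27h, at 205 and 200.2 and 201 and 168 in cko, and at 79.4 and 78.4 and 63.3 and 56.3 in dbko. The dbko libraries lay below all others with little spread. In wt it rose by 0.69 ± 0.11 over 6h (adjusted p = 0.000255) and fell by -0.56 ± 0.11 from 6h to 27h (adjusted p = 0.00179). In cko the 6h difference was -0.14 (adjusted p = 0.324), and in dbko -0.40 ± 0.11 (adjusted p = 0.0116, and 0.0732 without dbko 6h replicate 2). Between dbko and cko it differed by -1.36 ± 0.11 at 0h and -1.62 ± 0.11 at 6h. The gene overlaps Tmem204 on the other strand, which had at most 1 count in a library. Of 20 other tested genes of intraflagellar transport 0 were higher and 1 lower in dbko at 0h, Ttc21b at -0.83, and 0 were called at 6h. In wt over 6h 3 of the 20 rose and 3 fell, and at 27h 13 stood above 0h and 0 below, with the complex A gene Ift122 at 1.71.

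Chst10 and Gad1 encode enzymes. Chst10 is the sulfotransferase that completes the HNK-1 carbohydrate epitope (chr1:38863867-38898161, minus strand, ENSMUSG00000026080). It went from 45.3 and 54.1 CPM in wt at 0h to 248 and 236 at 6h and 83.3 and 85.7 at 27h, from 90.5 and 90.2 to 219 and 231 in cko, and from 23.8 and 20.2 to 36 and 33.6 in dbko. No 2 of the 7 groups overlapped, and the dbko groups were lowest. The wt rise of 2.28 ± 0.11 (adjusted p = 5.97e-08) and the fall of -1.52 ± 0.11 from 6h to 27h (adjusted p = 3.33e-06) held without any 1 wt library. In cko the rise was 1.32 (adjusted p = 2.69e-06) and in dbko 0.66 (adjusted p = 0.000853). Between dbko and cko it differed by -2.04 ± 0.12 at 0h and -2.69 ± 0.12 at 6h. Of 8 other tested sulfotransferase and HNK-1 genes 1 was higher at 0h, Ust at 2.32, and at 6h 1 was higher, Ust, and 1 lower, Chst11 at -1.10.

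Gad1 encodes glutamate decarboxylase 1, which makes GABA (chr2:70553072-70602014, plus strand, ENSMUSG00000070880). Libraries of wt were at 10.1 and 11.9 CPM at 0h, 26.5 and 30.1 at 6h and 5.1 and 5.51 at 27h. Libraries of cko were at 21.5 and 21.5 CPM and 36.4 and 31.6, and in dbko at 4.98 and 8.14 and 1.78 and 5.55. At 6h the dbko libraries, at 22 and 71 counts, differed from each other 3.12-fold and overlapped wt at 27h. Gad1 rose in wt over 6h by 1.36 ± 0.33 (adjusted p = 0.00539, and 0.0541 without wt 0h replicate 1) and fell by -2.42 ± 0.35 from 6h to 27h (adjusted p = 0.000422). Its 27h level was below 0h by -1.05 (adjusted p = 0.0293), a call lost without any of the 4 libraries (adjusted p = 0.0655 to 0.14). The dbko minus cko difference was -1.71 ± 0.35 at 0h and -3.20 ± 0.36 at 6h, -4.25 without dbko 6h replicate 2 and -2.61 without replicate 1, and dbko minus wt at 6h was -2.94, -3.98 and -2.35. The antisense gene Gad1os had at most 1 count, and 1.49% of the exon 50-mers of Gad1 are shared with other genes, Gad1-ps among them. Gad2, the other glutamate decarboxylase gene, was at 0 in all 14 libraries. Of 5 other tested genes of GABA metabolism and transport 0 were called between dbko and cko at either time by edgeR.

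The wt time course uses no library that the rule for choosing the 10 genes names. The genes and tests were chosen with earlier results of these data known, so the choice may not be free of the wt values. Over 6h 9 of 10 were called, where 46.2% of tested genes were: 7 rose (22.6% of tested genes rose) and 2 fell (23.5%), with a median of 0.88 beside -0.00 over all tested genes. Rising were Chst10, Il9r, Ift140, Osbpl5, Rhbdf1, Gad1 and Itgb3, and falling P2ry10 and Rras2. Between 6h and 27h 7 were called (34.1% of tested genes), 1 rose (15.9%) and 6 fell (18.2%), with a median of -0.68 beside 0.01. The 6 that fell were Chst10, Ift140, Osbpl5, P2ry10, Gad1 and Itgb3, of which all but P2ry10 had risen over the first 6h. Both comparisons use the same wt 6h libraries with opposite sign, so the rise and the fall are not independent. At 27h 6 differed from 0h (47.6%), with Chst10, Il9r and Rhbdf1 above it (23.0%) and Rras2, P2ry10 and Gad1 below it (24.6%), a share not far from that of all tested genes. Without 1 library the counts were 6 to 8 over 6h, 6 between 6h and 27h, and 4 at 27h against 0h. No culture without BAFF was analysed here, so BAFF and time in culture cannot be told apart.

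**Figure D4:**
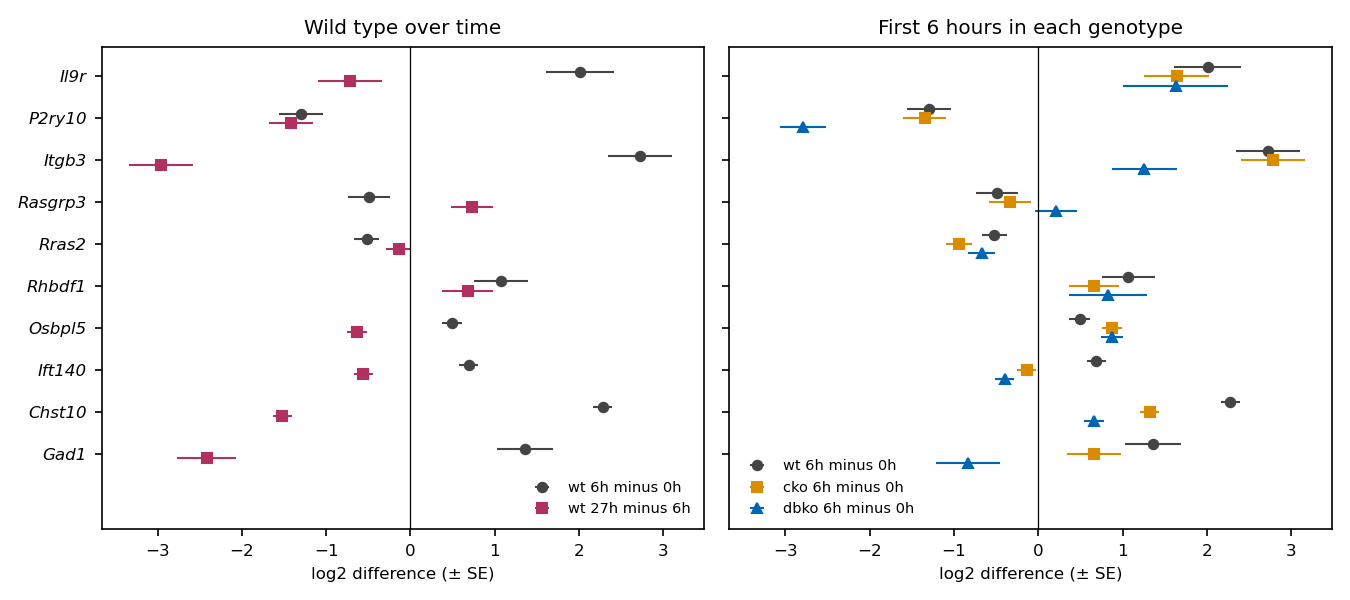
Log2 differences over time (x axis, bars ± SE) of the 10 genes (y axis), on the left wt 6h minus 0h as circles and 27h minus 6h as squares, on the right 6h minus 0h in wt (circles), cko (squares) and dbko (triangles). Itgb3, Chst10 and Gad1 lie above 1 in wt over 6h and below -1 from 6h to 27h, and P2ry10 lies farther below 0 in dbko than in wt, at -2.79 against -1.30.

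In the knockouts 6 of the 10 genes were called over 6h in either genotype, in cko where 41.9% of tested genes were (4 rose, beside 21.8%, and 2 fell, beside 20.1%) and in dbko where 39.6% were (3 rose, beside 19.3%, and 3 fell, beside 20.3%). Chst10, Osbpl5 and Itgb3 rose and Rras2 and P2ry10 fell in both, Il9r rose in cko and Ift140 fell in dbko. Leaving out dbko 0h replicate 2 added calls in dbko for Il9r (3.53, adjusted p = 0.00649), Rhbdf1 (1.89, adjusted p = 0.0209) and Rasgrp3 (0.87, adjusted p = 0.000565). Il9r and Rhbdf1 were also called without dbko 6h replicate 1 (2.20 and 1.35), but their values were 0.65 and -0.00 without dbko 6h replicate 2 (adjusted p = 0.427 and 1) and 0.82 and 0.20 without dbko 0h replicate 1 (adjusted p = 0.265 and 0.743). Rasgrp3 was then at 0.34 and -0.27 (adjusted p = 0.413 and 0.123). Gad1 was called without dbko 6h replicate 2 (-1.87, adjusted p = 0.000794) or dbko 0h replicate 1 (-1.16, adjusted p = 0.0499), and stood at -0.24 without dbko 6h replicate 1 (adjusted p = 0.509) and -0.43 without dbko 0h replicate 2 (adjusted p = 0.481). With only the dbko libraries in the fit 1 gene was called, and the share of all tested genes called there was not taken. The difference of the 6h response from that of wt was called lower in cko for 2 genes (1.15% of tested genes) and in dbko for 4 (6.94%). Chst10 responded less in cko by -0.96 ± 0.16 (adjusted p = 0.0133) and in dbko by -1.62 ± 0.16 (adjusted p = 0.000257), and Ift140 by -0.82 ± 0.15 (adjusted p = 0.0188) and -1.09 ± 0.15 (adjusted p = 0.00125). In dbko P2ry10 differed by -1.49 ± 0.36 (adjusted p = 0.0204) and Gad1 by -2.19 ± 0.50 (adjusted p = 0.0158). These responses share wt libraries with each other and cko or dbko libraries with the choice of the genes, so they are a description. The cko value of Chst10 lost its call in 5 of 8 fits without 1 library (adjusted p up to 0.101) and that of Ift140 in 7 of 8 (up to 0.132). In dbko P2ry10 lost its call without any 1 wt library (adjusted p = 0.0585 to 0.0818), and Gad1 without wt 0h replicate 1 (0.0714), wt 0h replicate 2 (0.0539) or wt 6h replicate 2 (0.064), with values of -1.60 without dbko 6h replicate 1 and -3.23 without replicate 2. Itgb3 (-1.46, adjusted p = 0.0971) was called without dbko 6h replicate 1 (-0.87, adjusted p = 0.00757) or replicate 2 (-2.47, adjusted p = 6.40e-06), and Rasgrp3 (0.70, adjusted p = 0.216) without dbko 0h replicate 2 (1.37, adjusted p = 0.000497).

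Set side by side per kb of exon, the 10 genes spanned a wide range. In wt at 0h the mean CPM per kb of exon was 322 for P2ry10, 61.5 for Rasgrp3, 34 for Rras2, 18.2 for Ift140, 15.2 for Il9r, 8 for Osbpl5, 6.96 for Itgb3, 4.15 for Chst10, 1.58 for Rhbdf1 and 1.44 for Gad1. Only the last 2 overlapped between libraries. In dbko at 0h Il9r moved from the fifth place to the ninth, at 0.502 CPM per kb, overlapping Gad1 and Rhbdf1, while P2ry10, Rasgrp3, Rras2 and Ift140 held the top 4 places, the last 3 overlapping each other in turn. At 6h Il9r was second in wt, at 61 CPM per kb, and eighth in dbko, at 1.55.

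Over all 14 libraries the log2 CPM of every pair of the 10 genes went together to some degree, with Pearson r from 0.09 to 0.98 and a median of 0.73 over 45 pairs. Over the 6 wt libraries, which the rule of choice does not name, the median was 0.12, from -0.99 to 0.98, and 25 of 45 pairs were positive. Il9r and Rhbdf1 had r = 0.98 over 14 libraries and 0.72 over the 6 of wt. The choice of genes low in dbko against cko favours positive r over all 14 libraries. These libraries also share genotype, time and replicate groups, so the values are a description. Among tested genes with a mean log2 CPM of 3 or more, predicted and clone-named genes left out, those most like the mean of the 10, by Pearson r over the 14 libraries, were Apoe (0.951), Nfkb2 (0.927), Map2k1 (0.922), Whrn (0.922), Nae1 (0.920), Trps1 (0.909), Plekhb2 (0.895) and Snx18 (0.895). Likeness to genes chosen as low in dbko against cko favours genes low in dbko too. The differences of these genes between dbko and cko are thus a description. Apoe, an apolipoprotein gene and a neighbour of Relb on the chromosome, differed between dbko and cko by -3.49 at 0h and -4.29 at 6h. A part of the altered Relb locus in that difference was not tested. Nfkb2, the partner of RelB, differed by -0.88 ± 0.16 (adjusted p = 0.00477) and -1.39 ± 0.16 (adjusted p = 0.000323). Of 12 tested genes of the non-canonical NF-kB pathway 1 was higher and 4 lower in dbko than in cko at 0h (5 with size factors from DESeq2), and 3 were higher and 4 lower at 6h, with the ubiquitin ligase gene Birc3 lower by -1.08. Closest to single members were Birc3 for P2ry10 (r = 0.976), Stat4 for Itgb3 (0.970), Man1a for Rasgrp3 (0.959) and Klhl2 for Rhbdf1 (0.959).

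Most neighbours of the 10 genes on the chromosome were not called lower with them. Within 250 kb of a start site lay 43 other tested genes. In dbko against cko 7 of them were higher and 2 lower at 0h, and 5 higher and 5 lower at 6h. Of all tested genes 2.39% were lower at 0h and 4.66% at 6h. The share called higher is not given, so the counts of higher neighbours have no share beside them. The 2 lower at 0h were Snrnp25, beside Il9r and Rhbdf1, and Gpr174, beside P2ry10, and both were lower at 6h too. Around Ift140, Rasgrp3, Rras2, Gad1 and Itgb3 0 neighbours were called lower at either time, with 15, 1, 2, 1 and 3 tested. Beside Chst10, Lonrf2 was lower at 6h (-2.29, adjusted p = 0.0307), and beside Osbpl5, Tnfrsf26 was lower at 6h by -0.53 and Dhcr7 higher by 0.45.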

How the data were processed

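RNA-seq counts per gene were deposited by the authors, 1 table per library: whole-number counts of reads per Ensembl gene ID, not normalized and not pooled. Per the submitters' processing notes CASAVA 1.8.2 was used, and the aligner, counting tool, build and strand setting were not given in the sources used here. Of the tallied reads 5.21 to 11.46% lay in no feature and 38.77 to 49.85% were not unique, and both stayed out of library sizes and tests. IDs were matched to GENCODE M21 on GRCm38 (37607 of 39179, with 99.54% of counts), which may not be the authors' build. Depths are 10497802 to 11888765 counts per library, and a lone count is about 0.1 CPM or less in each.

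Counts were scaled by TMM and tested across all genes in edgeR 4.0.16 (R 4.3.3, limma 3.58.1) by the quasi-likelihood test (glmQLFit, robust, and glmQLFTest, two-sided). The model held all 14 libraries with 1 mean for each group, which leaves 7 degrees of freedom; filterByExpr kept 12630 genes, and their common coefficient of biological variation was 0.144. Benjamini-Hochberg adjustment ran over all genes tested, and the method was tested on simulated data. The 10 genes, the 14 pathway lists, the 14 marker lists and the tests were chosen with earlier results of these data known. Named besides the 10 genes are up to 3 called genes per list with the smallest adjusted p, genes within 250 kb, the genes most like the members by Pearson r, and some partner genes (Itgav, Itga2b, Il2rg, Rasgrp1, Rasgrp2, Rhbdf2, Gad2 and P2ry10b) chosen for their role after their values were seen. Alternatives were size factors from DESeq2 in edgeR, DESeq2 1.42.0, no filter, a replicate block, only the groups compared and leaving out libraries. A left-out library leaves a group of 1, whose lone library is taken to vary as the other groups do. Tables and figures were made in Python 3.11.15 with pandas 2.3.3, NumPy 2.4.6, SciPy 1.17.1 and Matplotlib 3.10.9. Promoter windows are from RefSeq, GRCm38.p6.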

Additional observations from a re-analysis of the deposited data

Results flagged for a closer look

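In 6 cases the difference between 6h and 0h was not the same in 2 genotypes by the interaction term of the edgeR model. These terms use cko or dbko libraries that the choice of the genes rests on, so they describe the set and test nothing. The term was called lower in cko for 2 of the 10 genes and 1.15% of tested genes. In dbko it was called lower for 4 of the 10 and 6.94% of tested genes. For Chst10 the 6h response was smaller than in wt by -0.96 ± 0.16 in cko (adjusted p = 0.0133) and by -1.62 ± 0.16 in dbko (adjusted p = 0.000257), with rises of 2.28 in wt, 1.32 in cko and 0.66 in dbko. For Ift140 it was smaller by -0.82 ± 0.15 in cko (adjusted p = 0.0188) and by -1.09 ± 0.15 in dbko (adjusted p = 0.00125), with a rise of 0.69 in wt and values of -0.14 in cko and -0.40 in dbko. P2ry10 fell further in dbko than in wt, by -1.49 ± 0.36 (adjusted p = 0.0204). Gad1 rose in wt by 1.36 and stood at -0.83 in dbko, a difference of -2.19 ± 0.50 (adjusted p = 0.0158). Against wt, Chst10 in cko was at 0.86 at 0h and at -0.10 at 6h. The dbko values of Chst10 and Ift140 kept their call without any 1 of the 8 libraries. The cko values of both genes and the dbko values of P2ry10 and Gad1 did not, as given above.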

How the results depend on the processing

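Among values of single genes under an alternative, 1230 kept their direction and their side of the threshold, 70 gained the call, 69 lost it and 1 changed sign. That 1 is Rasgrp3 in dbko at 6h against 0h, at -0.40 (adjusted p = 0.0138) without dbko replicate 1 at both times, against 0.21 with all libraries and 1.00 without dbko replicate 2 at both times. Of the counts of called genes 116 stayed within 1.5 times and 21 moved. For cko against wt the 0h count was 1, 7 with no filter on low counts, 4 in DESeq2 and 8 with only the groups compared. At 6h it was 0, 3, 2 and 4 in the same order. Shares of all tested genes are given above beside the main, DESeq2 and groups-only counts. None was taken with no filter, so those counts have no share to be set against. Leaving out 1 library gave 0 to 1 at both times. The replicate block, with the replicate number as the sequencing lane, gave 1 at 6h (Ift140, -0.41, adjusted p = 0.048) and changed no other call among the 10 genes. Same-numbered libraries had correlated deviations over 0.1 in 4 of 21 pairs of groups, from -0.17 to 0.48, and the numbers were not taken to pair them, which would need every pair over 0.1. The dbko groups at 0h and 6h had the 0.48, and the 3 pairs among the 6h groups 0.11, 0.14 and 0.16. With only the groups compared, 1 gene was called in dbko over 6h and 2 in the 6h response of dbko. Leaving out 1 library gave 5 to 8 and 2 to 5 there, and 0 to 2 for the 6h response of cko. The share of all tested genes called was not taken for these fits, so their counts cannot be set against one. DESeq2 size factors in place of TMM moved the median of all genes by at most 0.05. With 2 libraries a group, and 7 to 146 counts of Il9r and 7 to 45 of Rhbdf1 in dbko, the size of these 2 differences is the least certain. The causes of these changes were not tested.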
